A study of Mus musculus with 3 samples.

Results

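Setd1a peaks were examined at the promoters of the clustered *Zfp* zinc finger genes of the mouse. These are the protein-coding genes of chr1 to chr19 in the GENCODE M21 annotation of mm10 that are named *Zfp* plus a number and have another such gene within 200 kb, measured from gene body to gene body. The rule took 227 of 358 *Zfp* genes, out of 20807 protein-coding genes of these chromosomes. The other 131 *Zfp* genes, called isolated here, served as the comparison. The widest gap inside the rule was that between *Zfp683* and *Zfp593* on chr4 (184293 bp), and the closest isolated gene was *Zfp969* on chr2 (210052 bp from its neighbor). The binding data were CUT & RUN peaks, in which an antibody directs a nuclease to the DNA beside the bound protein, from adult NSCs cultured from the dentate gyrus of 7 to 8-week-old mice. These mice carried Hopx-CreERT2, floxed Setd1a alleles (Setd1afl/fl) and H2B-GFP, and the labels give the cells the genotype WT. The cells were in quiescence medium with BMP4 and FGF2 and without EGF, and were taken at day 5. Setd1a was profiled in 2 libraries, from independent cultures, and IgG in 1 library, and the peaks found in both Setd1a replicates form 1 list of 6969 intervals with no height or score. NSCs derived this way are a culture model, and all libraries came from the same genotype and time point.

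Setd1a is the catalytic subunit of a complex that methylates lysine 4 of histone H3, a mark of active promoters. C2H2 zinc finger proteins bind DNA through tandem arrays of small zinc-holding domains, each of which reads a few bases. Many carry an N-terminal KRAB domain that recruits the corepressor Trim28 (KAP1), and this family silences endogenous retroviruses and other transposons and guards imprinted loci. The family grew by tandem duplication, which left its genes in arrays, several of them expanded in the mouse lineage. Genes for other C2H2 proteins, among them general promoter factors and BTB domain proteins, more often lie alone.

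A gene was counted as having a peak when any of its annotated transcripts began no more than 1000 bp from an interval of the list, and TSS stands here for such a transcription start. Promoter sequences of RefSeq (GRCm38.p6, 250 bases before to 50 after a start) were matched by symbol for 193 of 227 clustered and 103 of 131 isolated genes. The 8 promoters printed here show the range among clustered genes, and were chosen after their values were seen. The first 4 belong to genes with a peak and the other 4 to genes without. Each is written 5′ to 3′ on the strand of the gene, and the capitals mark CpG dinucleotides.
Zfp768: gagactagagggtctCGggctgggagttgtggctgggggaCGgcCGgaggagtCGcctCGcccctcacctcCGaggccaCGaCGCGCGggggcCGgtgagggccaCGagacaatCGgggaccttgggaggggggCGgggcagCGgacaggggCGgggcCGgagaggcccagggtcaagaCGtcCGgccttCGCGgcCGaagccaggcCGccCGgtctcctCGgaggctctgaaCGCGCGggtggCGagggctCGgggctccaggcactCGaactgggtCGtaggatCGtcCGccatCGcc
Zfp712: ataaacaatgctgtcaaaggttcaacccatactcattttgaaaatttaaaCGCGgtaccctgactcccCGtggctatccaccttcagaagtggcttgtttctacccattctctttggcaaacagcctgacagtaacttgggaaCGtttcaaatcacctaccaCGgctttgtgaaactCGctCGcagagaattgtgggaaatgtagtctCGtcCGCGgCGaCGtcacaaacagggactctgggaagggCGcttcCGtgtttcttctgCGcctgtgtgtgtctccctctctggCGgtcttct
Zfp566: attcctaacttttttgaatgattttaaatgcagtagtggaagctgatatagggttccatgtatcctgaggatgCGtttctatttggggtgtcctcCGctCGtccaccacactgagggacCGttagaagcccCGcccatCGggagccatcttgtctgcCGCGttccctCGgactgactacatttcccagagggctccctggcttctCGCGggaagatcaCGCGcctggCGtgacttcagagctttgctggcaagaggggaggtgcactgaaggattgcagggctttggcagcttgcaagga
Zfp84: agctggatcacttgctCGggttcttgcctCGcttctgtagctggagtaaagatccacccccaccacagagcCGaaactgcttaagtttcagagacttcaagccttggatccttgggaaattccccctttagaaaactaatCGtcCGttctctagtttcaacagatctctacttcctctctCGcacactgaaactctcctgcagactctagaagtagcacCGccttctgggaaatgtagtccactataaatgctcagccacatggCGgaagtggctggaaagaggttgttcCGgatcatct
Zfp382: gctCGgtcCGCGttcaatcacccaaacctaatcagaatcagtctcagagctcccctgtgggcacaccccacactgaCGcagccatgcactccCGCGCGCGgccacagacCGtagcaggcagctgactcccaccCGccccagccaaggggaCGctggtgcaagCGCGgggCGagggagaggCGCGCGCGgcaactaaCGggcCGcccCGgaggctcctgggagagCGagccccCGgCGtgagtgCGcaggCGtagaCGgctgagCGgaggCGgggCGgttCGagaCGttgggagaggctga
Zfp944: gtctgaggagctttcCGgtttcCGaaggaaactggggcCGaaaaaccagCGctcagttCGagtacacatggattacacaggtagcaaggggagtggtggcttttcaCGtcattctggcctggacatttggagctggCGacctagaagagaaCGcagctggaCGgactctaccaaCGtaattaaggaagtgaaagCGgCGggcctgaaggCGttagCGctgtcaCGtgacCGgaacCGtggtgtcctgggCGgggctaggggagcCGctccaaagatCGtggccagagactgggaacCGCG
Zfp383: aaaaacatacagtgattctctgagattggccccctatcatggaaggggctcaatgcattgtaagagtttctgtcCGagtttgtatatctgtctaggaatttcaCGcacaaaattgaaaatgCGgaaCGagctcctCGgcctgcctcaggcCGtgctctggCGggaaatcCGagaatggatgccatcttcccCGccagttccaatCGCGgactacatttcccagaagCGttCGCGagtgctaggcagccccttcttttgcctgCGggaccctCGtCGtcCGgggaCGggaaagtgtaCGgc
Zfp987: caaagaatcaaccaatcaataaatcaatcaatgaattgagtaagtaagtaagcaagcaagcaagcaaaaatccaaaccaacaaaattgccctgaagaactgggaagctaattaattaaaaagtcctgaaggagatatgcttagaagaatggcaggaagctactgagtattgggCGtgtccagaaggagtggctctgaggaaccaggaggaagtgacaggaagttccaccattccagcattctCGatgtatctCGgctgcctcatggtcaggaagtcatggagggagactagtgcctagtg

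*Zfp768* (chr7:127345265-127345564, minus strand) held 35 CpGs in its 300 bases, and the Setd1a peak covered all 300. *Zfp712* (chr13:67061121-67061420, minus strand) held 16 CpGs and its peak covered 70 of the 300 bases. *Zfp566* (chr7:30090461-30090760, minus strand) and *Zfp84* (chr7:29768302-29768601, plus strand) lie in the same cluster of 15 genes, held 14 and 9 CpGs, and were covered in full. Among the genes without a peak, *Zfp382* (chr7:30121682-30121981, plus strand) held 32 CpGs and *Zfp383* (chr7:29908267-29908566, plus strand) held 20, and both are neighbors of *Zfp566* and *Zfp84* in that cluster. *Zfp944* (chr17:22361351-22361650, minus strand) held 22 CpGs. *Zfp987* (chr4:146097062-146097361, plus strand), from an array on chr4, held 3. Over all matched promoters of clustered genes, the median number of CpGs was 17 in the 45 promoters of genes with a peak (quartiles 13 and 23) and 10 in the 171 of genes without (6 and 16). The printed set was chosen to show the range and does not follow these medians.

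Of the 227 clustered *Zfp* genes, 51 had a Setd1a peak, which is 22.5% (95% Wilson interval 17.5 to 28.3). The background over all 20807 protein-coding genes was 22.5%, so the clustered genes as a group stood at the genome-wide level. Of the 131 isolated *Zfp* genes, 51 had a peak, which is 38.9% (31 to 47.5). The difference, clustered minus isolated, was -16.5 percentage points, with a 95% Newcombe interval of -26.3 to -6.61. These intervals cover counting over genes only, and neighboring genes are not independent of each other. The list joins both Setd1a libraries, so no test over samples could be made, the read depth is unknown, and a gene without a peak is one for which the list holds none.

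**Figure D1:**
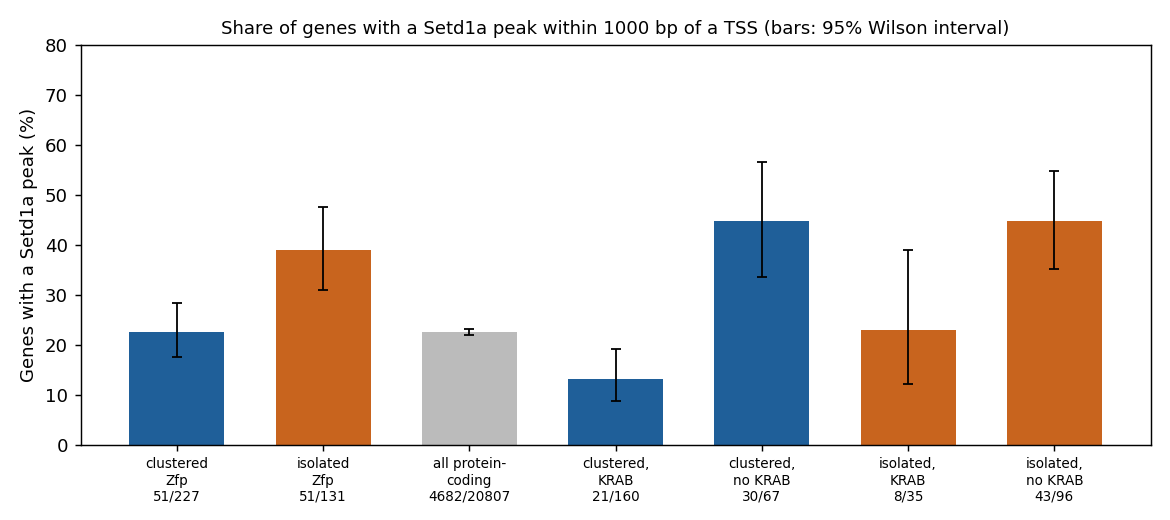
The bars give the percentage of genes with a Setd1a peak within 1000 bp of a TSS for clustered *Zfp* genes (blue), isolated *Zfp* genes (orange) and all protein-coding genes (gray), with 95% Wilson intervals and the counts under each bar. Clustered genes stand at 22.5% and isolated genes at 38.9%, and within both classes genes with a KRAB match (13.1% and 22.9%) stand below genes without (44.8% in each).

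The 51 genes with a peak were spread over many arrays rather than held in a few. Chained at 200 kb, the 227 genes formed 51 clusters of 2 to 19 genes on 14 chromosomes. At least 1 member had a peak in 26 clusters, and no member did in the other 25, which hold 93 genes. Every member had a peak in 3 clusters, each a pair of genes. The share with a peak was 29.5% in clusters of 2 (13 of 44), 13.6% in clusters of 3 or 4 (6 of 44), 30.8% in clusters of 5 to 9 (20 of 65) and 16.2% in clusters of 10 or more (12 of 74). The share thus followed no order of cluster size, and the interval of the difference between the largest and the smallest class ran from -29.5 to 1.84 points.

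**Figure D2:**
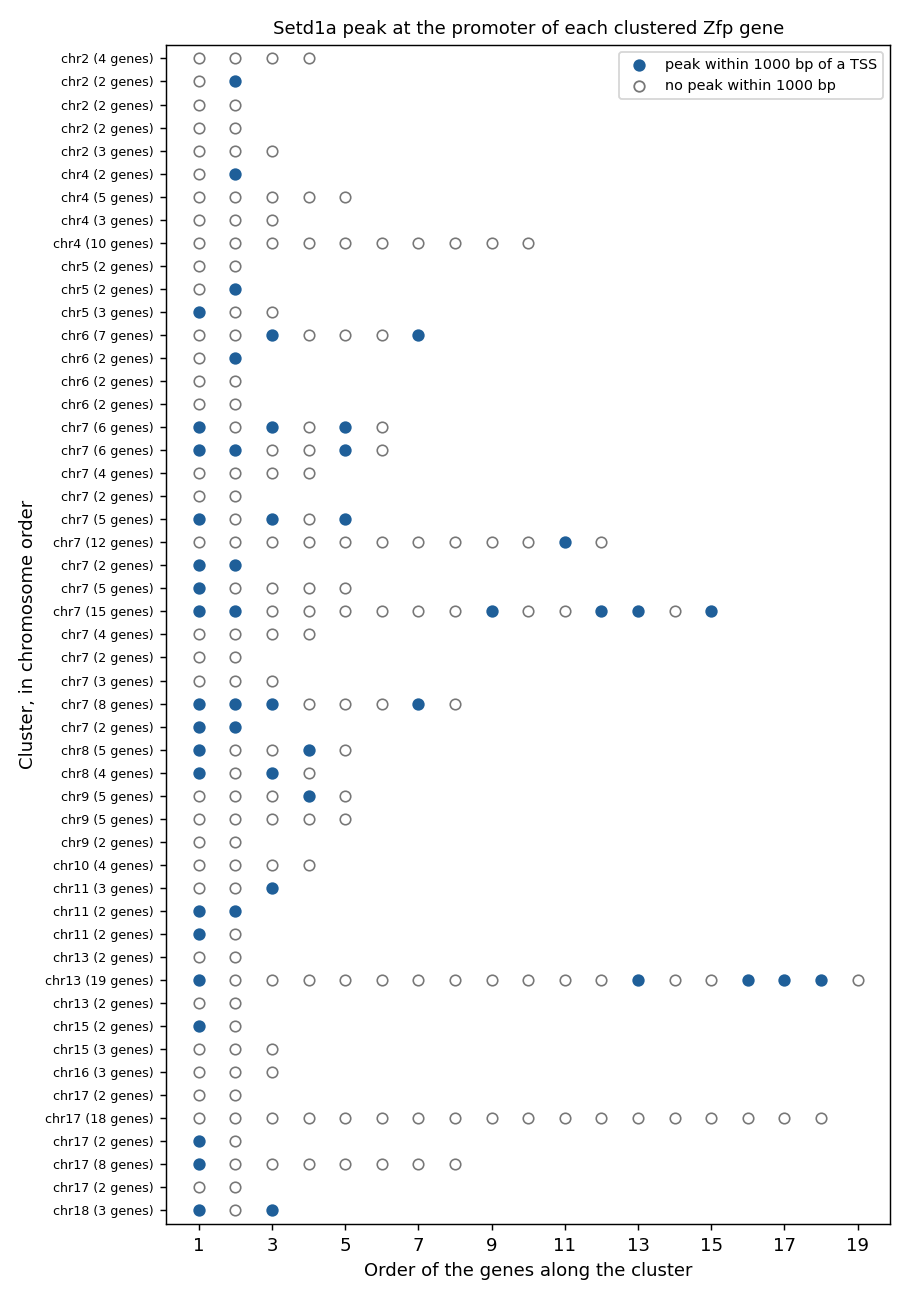
Each line is 1 of the 51 clusters, labeled with its chromosome and number of genes, and each circle is a gene in its order along the chromosome, filled where a Setd1a peak lay within 1000 bp of a TSS. Filled circles occur in 26 clusters, while the chr17 line of 18 genes and the chr4 lines of 5, 3 and 10 genes have none.

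Chr7 holds the most members, 76 genes in 14 clusters, of which 25 had a peak (32.9%, 23.4 to 44.1). On the other chromosomes 26 of 151 members had one (17.2%, 12 to 24), a difference of 15.7 points (3.97 to 28). Over all protein-coding genes, chr7 stood at 19.9% and the rest of the autosomes at 22.8%. Clustered genes thus had peaks more often on chr7 than elsewhere, while protein-coding genes as a whole did not. The chr7 clusters were split among themselves. In the cluster of 15 genes at chr7:29768552-30169750, peaks lay at 6 promoters. They belong to *Zfp84*, *Zfp30*, *Zfp568*, *Zfp566*, *Zfp260* and *Zfp146*. *Zfp568* is a KRAB protein known to repress a placental transcript of *Igf2*, and its peak ran from -502 to 106 bp relative to the TSS.

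In the cluster of 8 genes at chr7:127233061-127615797, *Zfp553*, *Zfp771*, *Zfp768* and *Zfp689* had a peak, and the span held 28.7 peaks per Mb against 3.61 for the chromosome. The cluster of 6 at chr7:4915217-5053723 had peaks at *Zfp628*, *Zfp524* and *Zfp784*, and no member of it matched the KRAB pattern used below. The cluster of 6 at chr7:6131491-6396915 had peaks at *Zfp787*, *Zfp444* and *Zfp78*. The cluster of 5 at chr7:12804977-12985714 had peaks at *Zfp329*, *Zfp128* and *Zfp446*. *Zfp110*, which encodes a partner of the p75 neurotrophin receptor, lies in the same cluster and had its nearest peak at 15868 bp. Other chr7 arrays were nearly empty. In the 12 genes of chr7:24081924-24587641 the list placed a peak at *Zfp428* alone, and in the 5 genes of chr7:27731389-28014115 at *Zfp60* alone.

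The largest cluster, with 19 genes at chr13:67038596-67827002, lies in the region of the Rsl genes, repressors of sex-biased transcription in the liver. Peaks lay at *Zfp712*, *Zfp87*, *Zfp65*, *Zfp85* and *Zfp493*. The other 14 genes had none, among them *Zfp708*, known to bind an endogenous retroviral repeat, whose nearest peak was 20322 bp away. *Zfp708* is known as a KRAB protein, but it matched only the second KRAB pattern described below and is counted without KRAB by the first. The other clusters of 5 or more with a peak had 1 or 2 each. *Zfp282* and *Zfp746* had peaks in the chr6 cluster of 7, and *Zfp746* encodes PARIS, a substrate of the ubiquitin ligase parkin. *Zfp868* and *Zfp963* had them in the chr8 cluster of 5. In that cluster the RefSeq promoter of *Zfp869* (chr8:69716853-69717152) also lay under a peak over 190 of its bases, but its nearest GENCODE start was 5802 bp from a peak, so the gene is counted without one here and in the motif counts. It was the sole member of this kind among those matched. Peaks lay at *Zfp266* in a chr9 cluster of 5 and at *Zfp871* in the chr17 cluster of 8.

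A further 4 clusters of 5 or more, with 38 genes, had no peak at any promoter. The largest was the array of 18 genes at chr17:21383748-22456689, all of which matched the KRAB pattern. Its span of 1.07 Mb held 1 peak, or 0.932 per Mb, against 3.14 for chr17. That peak lay 2564 bp from *Zfp52*, and the distance reached 891247 bp at *Zfp946*. The arrays of 5 and 10 genes on chr4 (chr4:145510759-146198755 and chr4:146971976-147848366) had none either, nor did the 3 genes between them. The peak on chr4 among the 20 clustered genes was at *Zfp593*, a member of a pair elsewhere on the chromosome. On chr2, 1 of 13 clustered genes had a peak, *Zfp334*. The arrays of distal chr2 and chr4 are known as recent expansions in the mouse lineage.

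*Zfp809*, which represses murine leukemia proviruses and is the best known retroviral silencer of the family, had its nearest peak at 140200 bp, and none of the 5 genes of its chr9 cluster had one at a promoter. *Zfp932*, another repressor of endogenous retroviruses, had its nearest peak at 87573 bp. *Zfp445*, which maintains imprinting, had its nearest peak at 503271 bp. Among isolated genes with well known roles, *Zfp335*, a factor needed in neural progenitors, had a peak over its TSS. *Zfp57*, which acts with *Zfp445* in imprinting, had its nearest at 24161 bp. *Zfp281* (278528 bp) and *Zfp42* (1583895 bp), both regulators of pluripotent cells, had no promoter peak either. *Zfp369*, a relative of *Zfp110*, stood at 37639 bp and *Zfp36*, which encodes an RNA-binding protein of another zinc finger class, at 5896 bp. Of the 6 clustered genes on the list of known roles used for naming genes (*Zfp809*, *Zfp568*, *Zfp932*, *Zfp708*, *Zfp445* and *Zfp110*), 1 had a peak, *Zfp568*, beside the background of 22.5%.

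A counted peak lies within 1000 bp of a TSS by the rule, and at most clustered genes with a peak it lay over a TSS. The peak overlapped a TSS at 41 of 51 genes (80.4%), lay upstream at 5 and downstream at 5. Among isolated genes with a peak, 42 of 51 overlapped a TSS (82.4%), and among all protein-coding genes with a peak 76.3% did. The members nearest to the limit of 1000 bp on the inside were *Zfp692* (310 bp), *Zfp266* (171 bp) and *Zfp444* (170 bp). On the outside they were *Zfp605* (1980 bp), *Zfp52* (2564 bp) and *Zfp865* (4594 bp). No member thus lay between 310 and 1980 bp, and the choice of window changed few assignments. Of the 176 members without a promoter peak, 170 had none within 10000 bp, and 87 had none within 100000 bp. Their median distance to a peak was 98014 bp, against 98331 bp for isolated genes without a promoter peak.

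**Figure D3:**
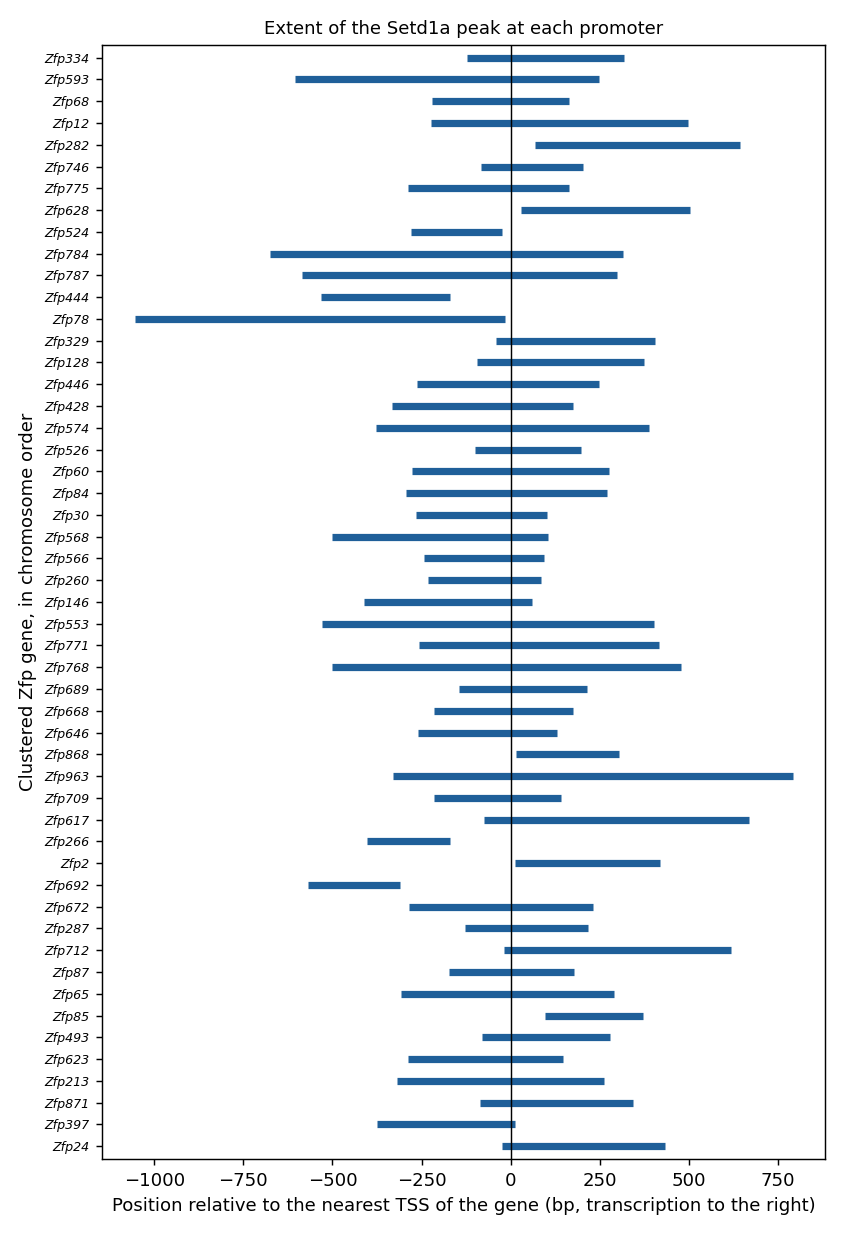
Each bar spans the Setd1a peak of 1 of the 51 clustered genes with a peak, in bp from the nearest TSS of that gene (black line), with transcription to the right. The peak crosses the TSS at 41 genes, and among the other 10 the gap between TSS and nearer peak edge is widest at *Zfp692*, 310 bp.

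The width of the peaks at clustered genes ran from 233 to 1122 bp, and its median was 453 bp (quartiles 361 and 604). The median was 508 bp at isolated genes (358 and 760) and 546 bp over all protein-coding genes with a peak (376 and 780), so the quartiles overlapped. The widest were at *Zfp963* (1122 bp), *Zfp78* (1038 bp), *Zfp784* (991 bp), *Zfp768* (978 bp) and *Zfp553* (934 bp). The narrowest, at *Zfp266*, had the lowest width in the whole list. The 51 genes had 50 distinct peaks, because the divergent neighbors *Zfp668* and *Zfp646* share 1 of 391 bp. At 35 genes no other annotated gene had a TSS within 1000 bp of the peak, at 9 another protein-coding gene did, and at 7 a noncoding gene alone did. The TSS nearest the middle of the peak was the member's own at 47 of 51. It was that of another gene at *Zfp146*, *Zfp553*, *Zfp646* and *Zfp712*. Peaks within member gene bodies but beyond 1000 bp of a TSS were rare, with 3 in 2 genes, *Zfp771* (2 peaks) and *Zfp980* (1). A peak of *Zfp771* lay over its last exon, which carries the finger arrays in most genes of this family.

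The place of a gene within its array was compared next. In the clusters of 5 or more, 12 of 32 first or last genes had a peak (37.5%, 22.9 to 54.7) and 20 of 107 inner genes did (18.7%, 12.4 to 27.1). The difference was 18.8 points, with a Newcombe interval of 1.98 to 37.2. The other protein-coding genes inside the cluster spans were those not named *Zfp* plus a number, and they can include zinc finger genes with other names. They had peaks at 21 of 111 promoters (18.9%, 12.7 to 27.2), close to the share of the members. In the spans of the 26 clusters with a peak, 17 of 76 of these other genes had one (22.4%), and in the 25 without, 4 of 35 (11.4%). The spans without a promoter peak held 1.16 peaks per Mb over 6.05 Mb and those with one 12.5 over 5.29 Mb, against 2.81 over the autosomes. Both rates follow in part from this sorting, since the clusters were divided by whether a member had a peak. The spans without a promoter peak also held fewer of these other protein-coding genes, 5.79 per Mb against 14.4 in those with one.

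The protein type of the gene was a feature that the rule did not use. Proteins were translated from the GENCODE coding sequences, and a KRAB box A was counted by a pattern of its canonical core, which can miss a diverged box. With and without KRAB stand here for a match and no match. Genes counted without KRAB can thus include proteins that have the box, such as *Zfp708*. The pattern was found in 160 of 227 clustered and 35 of 131 isolated genes. Among clustered genes, 21 of 160 with KRAB had a peak (13.1%, 8.75 to 19.2), against 30 of 67 without (44.8%, 33.5 to 56.6). The difference was -31.7 points (-44.3 to -18.8). Clustered genes without KRAB therefore had peaks above the background of 22.5%, and those with KRAB below it. Isolated genes gave 8 of 35 with KRAB (22.9%, 12.1 to 39) and 43 of 96 without (44.8%, 35.2 to 54.7). Without KRAB, the difference between clustered and isolated genes was -0.0155 points (-15.1 to 15.2). That class holds the whole chr7 cluster of 12, no gene of which matched the pattern and 1 of which had a peak. The lack of a match does not show that these proteins lack the box. With that cluster left out, 29 of 55 clustered genes without KRAB had a peak (52.7%, 39.8 to 65.3). With KRAB the difference between clustered and isolated genes was -9.73 points (-26.5 to 2.67). Within either protein type, the interval of the difference between clustered and isolated genes included 0, which does not show that they are alike. A second pattern, for the end of the box, was added after the matches of the first were seen. It raised the clustered genes with either match to 171, of which 23 had a peak (13.5%). Of the clustered genes with neither match, 28 of 56 had a peak (50%), and of the isolated genes 42 of 94 (44.7%).

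Members with a KRAB match and a peak include *Zfp84*, *Zfp30*, *Zfp568* and *Zfp566* on chr7, *Zfp712*, *Zfp87* and *Zfp65* on chr13, *Zfp868* and *Zfp963* on chr8, *Zfp266* on chr9 and *Zfp871* on chr17. Those without a match include *Zfp628*, *Zfp524*, *Zfp784*, *Zfp787* and *Zfp444*, and also *Zfp146* and *Zfp260*, short proteins made almost wholly of fingers. *Zfp85* and *Zfp493* matched the second pattern alone. The number of fingers overlapped widely. Members with a peak had a median of 11 fingers (quartiles 7 and 14) and those without a median of 12 (9 and 14). At least 3 fingers were found in 220 of 227 clustered genes, and 49 of those 220 had a peak (22.3%).

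CpG content was also measured, since Setd1a complexes are known to be drawn to CpG-rich DNA. The CpG observed/expected ratio of the 1000 bp around a representative TSS, 500 bp to each side, had a median of 0.539 in clustered genes (quartiles 0.373 and 0.688), 0.681 in isolated genes (0.514 and 0.822) and 0.583 over all protein-coding genes (0.227 and 0.78). CpG islands, the kind of promoter that most housekeeping genes have, stand out by a high ratio. Within the clustered genes, those with a peak had a median of 0.695 (0.61 and 0.79) and those without 0.484 (0.35 and 0.645). The GC content was 57% with a peak and 51.2% without. All protein-coding promoters were then divided into 3 classes of equal size by this ratio, with limits at 0.326 and 0.726. Of the clustered genes, 33 fell in the highest class (14.5%), against 54 of the isolated (41.2%).

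In the highest class 17 of 33 clustered genes had a peak (51.5%, 35.2 to 67.5), 30 of 54 isolated genes (55.6%, 42.4 to 68) and 44.6% of protein-coding genes. The difference between clustered and isolated genes there was -4.04 points (-24.5 to 16.7). In the middle class, which holds 153 of the 227 clustered genes, the shares were 20.3% clustered (31 of 153), 34.4% isolated (21 of 61) and 19.4% for all protein-coding genes. The clustered minus isolated difference was -14.2 points (-27.9 to -1.36), and clustered genes differed from protein-coding genes by 0.864 points (-4.82 to 7.98). Isolated genes differed from protein-coding genes by 15 points (4.31 to 27.6). The ratio was not matched within the middle class, where its median was 0.546 in clustered, 0.624 in isolated and 0.583 in all protein-coding genes. In the lowest class 3 of 41 clustered, 0 of 16 isolated and 240 of 6906 protein-coding genes (3.48%) had a peak, and the Wilson interval of the isolated genes reached 19.4%.

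**Figure D4:**
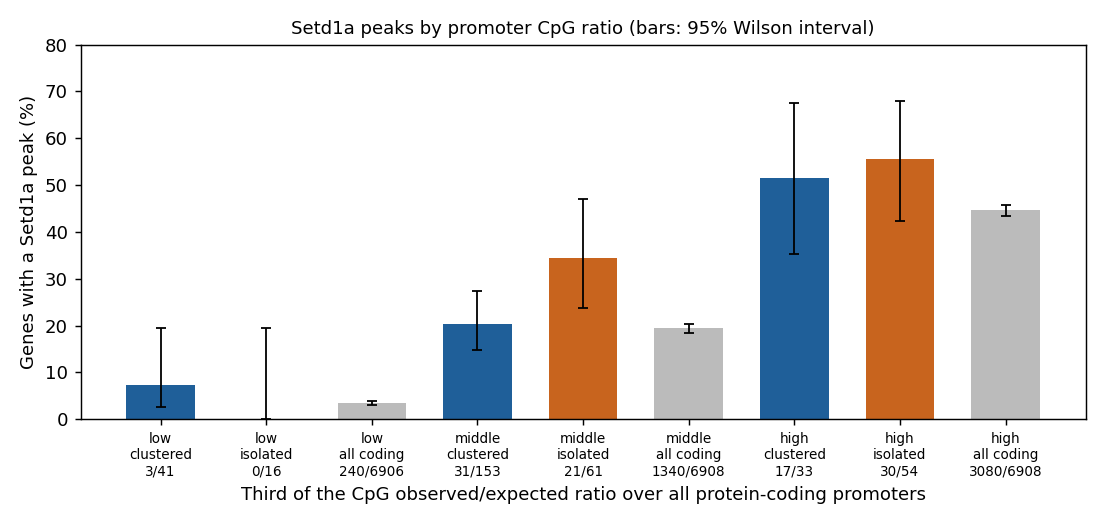
The bars give the percentage of genes with a Setd1a peak in the low, middle and high class of the promoter CpG ratio for clustered *Zfp* (blue), isolated *Zfp* (orange) and all protein-coding genes (gray), with 95% Wilson intervals and counts. All 3 groups rise from the low to the high class, where clustered genes reach 51.5%, isolated 55.6% and all genes 44.6%.

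The 3 clustered genes with a peak in the lowest class were *Zfp775*, *Zfp646* and *Zfp287*, and in each the peak lay at another start than the representative one. *Zfp775* had a ratio of 0.14 at its representative TSS and 0.626 at the start with the peak. *Zfp646* had 0.276 and 0.917, and *Zfp287* had 0.234 and 0.61. *Zfp672* likewise had 0.687 and 0.944. *Zfp65* was the exception among the 5 members with a peak at another start, with 0.396 and 0.351. The lowest values among members with a peak were thus values of starts that carry no peak.

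KRAB and CpG ratio overlapped as features. Clustered genes with KRAB had a median ratio of 0.506 and those without 0.684. In the highest CpG class 4 of 16 clustered genes with KRAB had a peak (25%, 10.2 to 49.5) and in the middle class 17 of 109 (15.6%). In the lowest class 0 of 35 did, for which the interval reached 9.89%. All clustered genes, with and without KRAB, stood higher in the highest class (17 of 33, 51.5%) and in the middle class (31 of 153, 20.3%). Within these classes, genes with KRAB thus had a peak less often than all clustered genes, a whole that includes them. The part of either feature was not tested. Clustered KRAB genes of the highest class without a peak include *Zfp110* (ratio 0.853, nearest peak at 15868 bp) and *Zfp382* (0.822, 27081 bp). *Zfp942* and *Zfp943*, divergent neighbors on chr17 with ratios of 0.79 and 0.76, had their nearest peaks at 400047 and 429577 bp. Of the 50-base stretches around their starts, 37.8% and 36.3% are found elsewhere in the genome, a feature described below. A CpG-rich promoter therefore went without a peak in about as many clustered genes (16) as it had one (17).

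Near-identical copies are common in young arrays, and the authors kept uniquely mapped reads, so repeated promoter sequence was measured. For each gene the 1000 bp around the representative TSS were divided into overlapping stretches of 50 bases, and the share found elsewhere in the genome on either strand was counted. More than 10% was repeated in 60 of 227 clustered, 10 of 131 isolated and 2330 protein-coding genes. None of those 60 clustered genes had a peak, for which the Wilson interval reached 6.02%. Over all protein-coding genes above that limit, 150 of 2330 had one (6.44%, 5.51 to 7.51). The distal chr2 arrays held the most copies, with a median of 100% in each of 2 pairs. The chr4 array of 10 genes had a median of 52%, with 9 of 10 genes above the limit. In the chr17 array of 18 genes, 7 were above it, with a median of 0.893%, so most of its genes without a peak had promoters of nearly unique sequence. The part that repeated sequence plays in the absence of peaks was not tested.

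**Figure D5:**
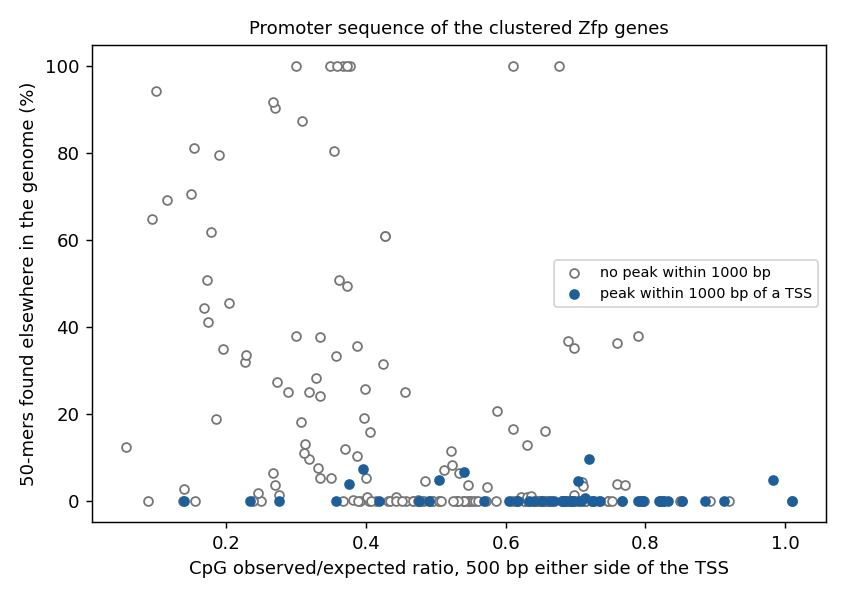
Each circle is 1 of the 227 clustered genes, placed by the CpG observed/expected ratio of the 1000 bp around its representative TSS (horizontal axis) and by the percentage of 50-base stretches found elsewhere in the genome (vertical axis), and filled where a peak lay within 1000 bp of a TSS. No filled circle lies above 9.66%, and most lie to the right of a ratio of 0.6 (lower quartile 0.61).

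Among genes with no repeated stretch, 43 of 130 clustered (33.1%, 25.6 to 41.5), 48 of 105 isolated (45.7%, 36.5 to 55.2) and 26% of protein-coding genes had a peak. The difference between clustered and isolated genes was -12.6 points (-24.7 to -0.125). With both limits set, to the highest CpG class and no repeated stretch, 16 of 28 clustered genes (57.1%, 39.1 to 73.5) and 27 of 49 isolated genes (55.1%, 41.3 to 68.1) had a peak, and 44.7% of protein-coding genes. Clustered KRAB genes with at most 10% repeated had a peak at 21 of 102 promoters (20.6%, 13.9 to 29.4) and clustered genes without KRAB at 30 of 65 (46.2%, 34.6 to 58.1). The order by protein type held among promoters of nearly unique sequence.

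A start of another protein-coding gene on the opposite strand within 1000 bp was annotated at 11 clustered genes, of which 5 had a peak (45.5%, 21.3 to 72). They were *Zfp524*, *Zfp526*, *Zfp553*, *Zfp668* and *Zfp646*. Isolated genes had such a start at 17, with a peak at 12 (70.6%, 46.9 to 86.7), and over all protein-coding genes the share with a peak was 50.1% with such a start and 19.1% without. Without one, 46 of 216 clustered genes (21.3%) and 39 of 114 isolated genes (34.2%) had a peak, a difference of -12.9 points (-23.3 to -2.9). The clustered pairs *Zfp942* with *Zfp943* and *Zfp944* with *Zfp758* are divergent and had no peak.

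Exact matches to 9 short promoter motifs were counted on both strands of the RefSeq promoters. With or without a peak refers here to the gene, and its peak can lie outside the RefSeq promoter, as at *Zfp282* and *Zfp444*. The GC box GGGCGG was present in 25 of 45 promoters of clustered genes with a peak (55.6%) and in 56 of 171 of those without (32.7%). It was present in 53.2% of isolated promoters, in 64.5% of those of isolated genes with a peak, and in 35.7% of all 32851 promoters. The CCAAT box, CCAAT, ran the other way in clustered genes, with 42.2% with a peak and 55% without. It was present in 39% of isolated promoters, in 41.9% of those of isolated genes with a peak, and in 37.4% of all promoters. The letters GCGCATGCG, the core of the NRF1 site, occurred in 5 of 45 promoters of genes with a peak (11.1%). They occurred in 5 of 171 of genes without (2.92%), in 3.55% of isolated promoters and in 1.75% of all. Among isolated genes with a peak, 5 of 62 promoters held them (8.06%). The ETS-type letters CCGGAAGT were found in 8.89% and 10.5% of promoters of clustered genes with and without a peak and in 3.89% of all. TATAAA (11.1% and 4.68%, all 13.6%) and CACGTG (2.22% and 8.19%, all 7.15%) were present in few promoters of genes with a peak. So were TGACGTCA (4.44% and 2.92%, all 1.79%) and AAGATGGCG (4.44% and 1.75%, all 1.4%). Their counts lay between 1 and 5 of 45. TCTCGCGAG was in none of the clustered promoters and in 0.676% of all.

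A longer stretch recurred in the promoters printed above, ACTACA followed after any 2 bases by TCCCAG. It was noticed in those sequences and then counted on both strands of every promoter, so its share among the clustered genes is a description. It resembles the known binding sequence of Zfp143, a factor of many promoters, whose own gene, isolated on chr7 and named after its value was seen, had a peak over a TSS. The stretch was present in 28 of 216 promoters of clustered genes (13%), 4 of 141 of isolated genes (2.84%) and 339 of 32851 of all (1.03%). By gene, it was found at 27 of 193 clustered genes (14%, 9.8 to 19.6) and 4 of 103 isolated genes (3.88%, 1.52 to 9.56). It lay in 9 clusters, with 8 of the 14 genes matched in the chr7 cluster of 15, 6 of 10 in the chr7 cluster of 12 and 6 of 17 in the chr13 cluster of 19. The stretches of the first are printed 5′ to 3′ on the strand that reads ACTACA, with the matched letters in capitals and 8 bases to each side.
Zfp84: tatagtggACTACAttTCCCAGaaggcggt
Zfp790: ggccttgaACTACAttTCCCAGaatacctc
Zfp940: agtcttgaACTACAttTCCCAGgagtccat
Zfp420: gccattggACTACAttTCCCAGagccaccg
Zfp383: aatcgcggACTACAttTCCCAGaagcgttc
Zfp74: tgctttgaACTACAttTCCCAGagcccttc
Zfp566: tcggactgACTACAttTCCCAGagggctcc
Zfp260: aactgtgaACTACAttTCCCAGaagtctca

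Of these genes, given with the place of the stretch, *Zfp84* (chr7:29768519-29768548), *Zfp566* (chr7:30090565-30090594) and *Zfp260* (chr7:30095037-30095066) had a Setd1a peak. The peak covered the stretch at *Zfp84* and *Zfp566*. At *Zfp260* the peak (chr7:30094546-30094861) ended before the stretch. *Zfp790* (chr7:29815958-29815987), *Zfp940* (chr7:29853666-29853695), *Zfp420* (chr7:29859912-29859941), *Zfp383* (chr7:29908468-29908497) and *Zfp74* (chr7:29954097-29954126) had none. Over all clustered genes, 6 of 27 with the stretch had a peak (22.2%, 10.6 to 40.8) and 34 of 166 without it (20.5%, 15 to 27.3). Among protein-coding genes, 116 of 277 with it (41.9%, 36.2 to 47.8) and 23.7% of those without had one. The stretch was found at 6 of 40 clustered genes with a peak (15%) and 21 of 153 without (13.7%). The clustered genes share ancestry, so these matches are not independent.

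Markers of the cell type were checked in the same list. Of 12 genes of quiescent NSCs, several of which astrocytes also express, 8 had a promoter peak, namely *Sox2*, *Nes*, *Gfap*, *Id1*, *Id3*, *Id4*, *Hes1* and *Vim*, and *Hopx*, *Hes5*, *Sox9* and *Fabp7* did not. Of 10 genes of neurons, microglia, oligodendrocytes and endothelial cells, 0 had one, beside the background of 22.5%. Genes particular to astrocytes were not in either list.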

How the data were processed

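Setd1a CUT & RUN was done on quiescent adult NSCs at day 5 (2 Setd1a libraries and 1 IgG library). According to the submitters' processing notes and methods, reads were demultiplexed with bcl2fastq 2.17.1.14, trimmed with Trimmomatic 0.32, uniquely mapped to mm10 with Bowtie2 2.1.0, filtered for mapping quality with SAMtools 0.1.18, and peaks were called with MACS2 2.2.8 at its defaults. The authors intersected the peaks of the replicates and deposited 1 list of chromosome, start and end in bp, without a score. Whether IgG served in calling is not given in the sources used here. Unique mapping can leave repeated promoters with fewer usable reads. All columns were used.

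Peaks were placed on GENCODE M21 with Python 3.11.15, numpy 2.4.6, pandas 2.3.3 and numba 0.67.0, and figures were drawn with matplotlib 3.10.9. All peaks lay within the chromosome lengths of the reference on 19 of 19 autosomes. Distance ran from the nearer peak edge to the nearest TSS of any transcript. The assignment was tested on simulated data. The representative transcript gave CpG ratio, GC content and repeated 50-base stretches (against 66 genome sequences). A protein was translated from each complete GENCODE coding sequence, since the planned protein table was not used here. KRAB and finger patterns, 9 motifs, Wilson and Newcombe intervals (95%) were computed as described, and no hypothesis test was run.

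Genes named were those with a peak in clusters of 5 or more, the 5 with the widest peaks, the 3 on either side of the 1000 bp limit, a list of genes with known roles and others that a count singles out. The members, lists and rules were chosen with earlier results of these data known. Alternatives covered the window, the TSS set, peak width, the neighbor distance, the gene names and the sequence features.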

Additional observations from a re-analysis of the deposited data

How the results depend on the processing

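The share of clustered genes with a peak was 22.5% and stayed inside its 95% interval under 13 of 15 alternatives. It moved to 17.2% without chr7 and to 30.5% among promoters with at most 10% of repeated stretches, both chosen after seeing the data. Counting RefSeq starts too, also chosen after seeing the data, gave 22.9%. The share of isolated genes, 38.9%, ran from 31.3% to 45.7% over 15 alternatives and stayed inside its interval in all 15. The difference, -16.5 points, ran from -24.8 points (a wider set of zinc finger names) to -10.6 points (each peak given to the nearest TSS only), and its sign held in all 15. Among promoters with at most 10% repeated it was -10.8 points, with an interval of -21.8 to 0.364, and without chr7 it was -22.6 points. The share over all protein-coding genes, whose interval is narrow, moved from 22.5% to 21.8% within 500 bp, 24.1% within 3000 bp, 17.2% where the peak overlaps the TSS, 21.9% with protein-coding transcripts only, 20.6% with 1 representative transcript, 18.3% with each peak given to the nearest TSS and 19.9% with peaks of at least 300 bp. The planned restriction to genes with 3 or more fingers used translated coding sequences in place of a protein table, which was not used here, and gave 22.3% and 40%.

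No paired analysis was possible because intervals of both libraries were joined with no column for either. For the same reason no replicate was left out, and the spread between cultures was not measured. Genes are not replicates, and duplicated neighbors are not independent, so the intervals are too narrow for arrays that share their history. The list holds no read counts, so weak binding cannot be told apart from none.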
